A study of Mus musculus with 2 samples.

Results

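The 10 genes described here make up the class II antigen presentation machinery of the mouse. They are Cd74, H2-Aa, H2-Ab1, H2-Eb1, H2-DMa, H2-DMb1, H2-DMb2, H2-Oa, H2-Ob and Ciita, taken by symbol, and all 10 were among the 32285 genes of the count table. Their transcripts were counted in 2 single-cell libraries of mouse liver made with droplet 3′ v3 chemistry (10x Genomics). By its label 1 library came from embryonic liver (E18.5) and the other from liver at postnatal day 180 (P180), so each stage has 1 library and no replicate. In both, the mice were Hhex knockout and had received 4N-ESCs, tetraploid embryonic stem cells carrying tdTomato, as blastocysts, while strain and sex are not given. Hhex encodes a homeobox factor needed for liver formation, and the stated aim was to define the cells and the share that is tdTomato-positive. A search of the gene table found 0 tdTomato features, so whether a cell came from the host or from the injected cells, and whether it was tetraploid, cannot be told apart here.

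The cells of the 2 libraries went against their stage labels, so "the library labelled" is used throughout. Whether the labels were exchanged was not tested, and if they were, each ratio of P180 over E18.5 would read in the opposite direction between the stages. After filtering, 4543 cells of 9871 barcodes were left in the library labelled E18.5 and 8847 of 9771 in that labelled P180, with medians of 4726 and 5905 UMIs (unique molecular identifiers, each a counted transcript) per cell. The median mitochondrial share of a barcode was 16.7% and 0.655%, and 28 barcode sequences occurred in both. Under the E18.5 label, mature B cell-like cells made up 28.8% and T cell-like cells 10.4%, and no cluster was erythroid-like. Under the P180 label 78.4% of cells were erythroid-like. As background, fetal liver forms red cells and holds few mature lymphocytes, while adult liver does not form red cells. No cluster of either library was hepatocyte-like, although the labelled tissue is liver. Class names carry "-like" because they rest on transcripts, and the 10 genes were left out of the genes that formed the clusters.

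Class II molecules show peptides from material taken up by a cell to CD4 T cells. The alpha and beta chains (H2-Aa with H2-Ab1, and H2-Eb1 with its own alpha chain) assemble on the invariant chain encoded by Cd74, which blocks the groove and directs the complex to endosomes. There H2-DM, of H2-DMa with a beta chain from H2-DMb1 or H2-DMb2, releases the last invariant chain fragment and selects stable peptides, and H2-O, of H2-Oa with H2-Ob, holds H2-DM back. Ciita encodes the coactivator that, without binding DNA itself, turns on these genes through factors bound at the X and Y boxes of their promoters. Dendritic cells, macrophages and B cells carry the pathway constitutively, and plasma cells are known for losing Ciita.

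Of the 10 genes, 8 lie together in the class II region of chromosome 17, within 224335 bases (mm10, chr17:34092340-34316674), and all 10 are protein-coding. The Ciita gene lies at chr16:10480059-10528418 and its longest coding transcript has 19 exons. For 7 members 8 promoters were found in the RefSeq table (GRCm38.p6), 2 of them of H2-DMa, each from 250 bases before to 50 after the start, and those of Cd74, H2-Ab1 and Ciita were not. Both strands were searched for the Y box core ATTGG and the X box core ACNGATG. The Y core was present in 7 of the 8 against 37.4% of all 32851 promoters, and the X core in 5 of 8 (H2-Aa, H2-DMb1, H2-DMb2, H2-Eb1 and H2-Oa) against 9.85%. The promoter with neither was 1 of the 2 of H2-DMa. An X core 10 to 30 bases before a Y core on the same strand was present in 3 of the 8, those of H2-DMb1, H2-DMb2 and H2-Eb1, and in 0.158% of all promoters (52 of them). The windows of H2-DMb2 (chr17:34145117-34145175) and H2-Eb1 (chr17:34305767-34305824) are shown because the genes hold the same pair and were highest in different cell classes. Both are on the plus strand, 5′ to 3′, with the X and Y cores in capitals:
H2-DMb2: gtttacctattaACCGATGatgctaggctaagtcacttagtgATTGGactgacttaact
H2-Eb1: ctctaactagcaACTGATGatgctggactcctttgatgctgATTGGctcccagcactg
The cores were 23 bases apart in H2-DMb2 and 22 in H2-Eb1, and the X core began 120 and 88 bases before the start. In H2-DMb1 (chr17:34153088-34153146, within its annotated first exon) they were also 23 bases apart. A match of letters is a description and not evidence of binding.

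Levels are given as CPM, the UMIs of a gene per 1000000 UMIs of all cells of a class in a library, with exact Poisson 95% intervals, which cover counting error only. Since 3′ chemistry counts 1 tag per transcript, levels of different genes need no scaling for length. In the library labelled E18.5, Cd74 was highest in 3 classes. It stood at 15107 CPM in the 159 macrophage-like cells, 14246 in the 194 conventional dendritic type 2-like cells and 13922 in the 150 conventional dendritic type 1-like cells. Next came 6547 CPM (6485 to 6610) in 1308 mature B cell-like cells and 2530 CPM (2453 to 2609) in 97 plasma cell-like cells. Below these came monocyte-like cells at 397 CPM, cholangiocyte-like cells at 196 and neutrophil-like cells at 87.4. Mesenchymal-like (57.5), T cell-like (49.9), endothelial-like (46.4) and NK cell-like cells (36.6) followed, and the ratio of each of these to the next had an interval that held 1. The values of neutrophil-like and mesenchymal-like cells could not be separated either. In the dendritic type 2-like cells the 8 type 1 markers summed to 848 CPM and the 6 type 2 markers to 765, against 4994 and 197 in type 1-like cells. The type 2-like class also held 109 CPM of shared B lineage, 136 of macrophage and 298 of plasmacytoid dendritic markers. Whether it is mixed was not tested.

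In the library labelled P180, Cd74 was highest in the 74 conventional dendritic type 1-like cells, at 11439 CPM. The 201 B lineage cells, which formed 1 B precursor-like cluster, held 1270 CPM (1225 to 1316) and the 250 monocyte-like cells 273. Mesenchymal-like cells held 22.0 CPM, of which 1 cell gave 90.9%. Erythroid-like (3.55), endothelial-like (3.20) and neutrophil-like cells (2.67) were lowest and did not differ beyond their intervals. A finer clustering (resolution 2, chosen after the data were seen) split the B lineage into 79 mature B cell-like cells with 4000 CPM and 122 precursor-like cells with 104.

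Shares of cells with a UMI depend on depth, so each cell was also thinned to 1000 UMIs. After thinning, Cd74 was found in 98.6% of mature B cell-like, 98.7% of dendritic type 1-like and 97.4% of macrophage-like cells under the E18.5 label, and in 4.67% of T cell-like cells. T cells of the mouse are not known to make class II molecules, and this share (17.2% unthinned, at a median of 5277.5 UMIs) is taken as the background of that library. The shares in neutrophil-like (5.53%), endothelial-like (4.55%) and NK cell-like cells (2.53%) were near or below that level. Whether they are background or expression was not tested. In CPM, Cd74 was higher in neutrophil-like cells (87.4, 72.4 to 105) than in T cell-like cells (49.9, 41.7 to 59.2). However, 1 cell gave 24.4% of the Cd74 UMIs of the former, and 1 cell 11.5% of those of the latter. The median depths were 2866 and 5277.5 UMIs, and the part of depth in this difference was not tested. In the library labelled P180 the thinned background in erythroid-like cells was 0.525% (2.21% unthinned, at a median of 5238 UMIs), with 100% of dendritic type 1-like and 47.0% of B lineage cells carrying Cd74 (60.7% unthinned, median 5991). The background level of Cd74 was 49.9 CPM in T cell-like cells labelled E18.5 and 3.55 in erythroid-like cells labelled P180. These are different classes, so a part of class and a part of library in this difference cannot be told apart.

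**Figure D1:**
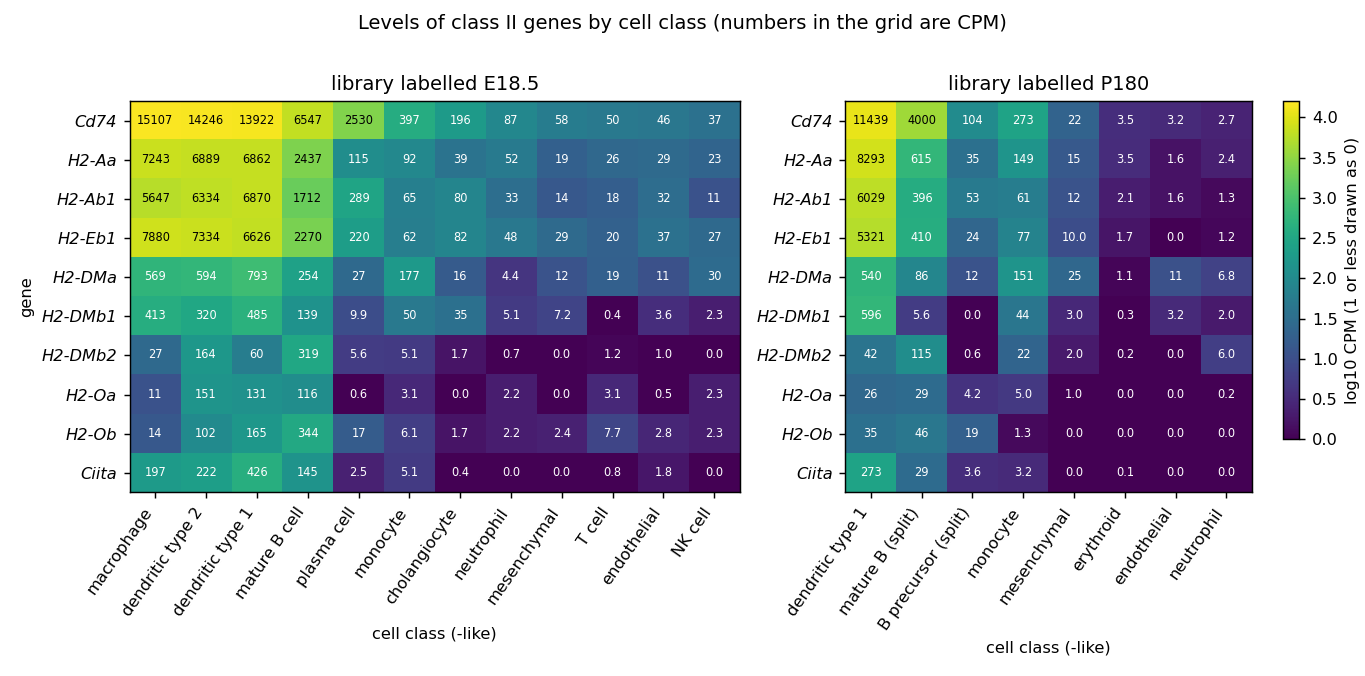
Level of each class II gene (rows) in each cell class (columns) of the 2 libraries, as CPM in the grid and as log10 CPM in colour. The 3 leftmost classes of the library labelled E18.5 and the dendritic type 1-like cells labelled P180 hold the brightest values, while H2-DMb2 and H2-Ob are brightest in mature B cell-like cells.

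The classical chains followed Cd74. H2-Aa, the alpha chain of the A molecule, stood at 7243 CPM in macrophage-like, 6889 in dendritic type 2-like, 6862 in dendritic type 1-like and 2437 in mature B cell-like cells under the E18.5 label, and both dendritic values could not be separated. H2-Ab1, its beta chain, had another order, with 6870 CPM in dendritic type 1-like, 6334 in dendritic type 2-like, 5647 in macrophage-like and 1712 in mature B cell-like cells. H2-Eb1, the beta chain of the E molecule, stood at 7880, 7334, 6626 and 2270 CPM in macrophage-like, dendritic type 2-like, dendritic type 1-like and mature B cell-like cells. The alpha chain gene of the E molecule was not analysed here. Under the P180 label the dendritic type 1-like cells held 8293, 6029 and 5321 CPM of H2-Aa, H2-Ab1 and H2-Eb1.

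Ciita, the coactivator, was highest in dendritic type 1-like cells, where the E18.5 label had 426 CPM (401 to 453). The same class had 273 CPM (249 to 299) under the P180 label. Dendritic type 2-like cells held 222 CPM and macrophage-like cells 197, which could not be separated, and mature B cell-like cells held 145. From there it dropped 28.5-fold (12.2 to 88.0) to 5.09 CPM in monocyte-like cells, resting on 5 UMIs. Ciita gave 4 UMIs in plasma cell-like, 2 in T cell-like and 0 in 399 neutrophil-like cells under the E18.5 label, the last of which allows a level of up to 2.71 CPM by the exact interval. The gene shares 25888 bases with Dexi on the opposite strand, and none of the sources used here says whether counting used the strand.

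H2-DMa, the alpha chain of the peptide editor, was highest in dendritic type 1-like cells (793 CPM), followed by dendritic type 2-like (594) and macrophage-like cells (569), which could not be separated, and mature B cell-like cells (254). It shares 3094 bases with Brd2 on the opposite strand, a gene with 5891 and 5882 UMIs over all barcodes of the libraries, so reads of the pair may not be separable. H2-DMb1, its first beta chain, stood at 485 CPM in dendritic type 1-like, 413 in macrophage-like, 320 in dendritic type 2-like and 139 in mature B cell-like cells. H2-DMb2, the other beta chain, was highest in B cells instead. It stood at 319 CPM (305 to 333) in mature B cell-like cells, 164 in dendritic type 2-like, 59.6 in dendritic type 1-like and 27.3 in macrophage-like cells. The transcripts of H2-DMb1 and H2-DMb2 were 77.7% identical where aligned, and 36.4% of the 31-base words of H2-DMb1 also occur in H2-DMb2. Of the words in the last 300 bases of H2-DMb1, where 3′ tags fall, 0% occur in the last 300 bases of H2-DMb2. These words were not looked for on their own in the rest of H2-DMb2.

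The 2 beta chains of H2-DM were thus used in different proportion. H2-DMb2 UMIs were 2.29 times (2.12 to 2.48) those of H2-DMb1 in mature B cell-like cells, 0.513 times in dendritic type 2-like, 0.123 times in dendritic type 1-like and 0.0661 times in macrophage-like cells. Under the P180 label the ratio was 20.8 (7.81 to 77.9) in B lineage cells, from 83 and 4 UMIs, and 0.0702 in dendritic type 1-like cells. The order from B cells to dendritic type 1-like cells was the same in both libraries. In each, the B cell interval lay wholly above 1 and the dendritic type 1-like interval below it.

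H2-O was high in B cells and both dendritic classes and low in macrophage-like cells. H2-Ob, its beta chain, stood at 344 CPM (330 to 359) in mature B cell-like cells, 165 in dendritic type 1-like, 102 in dendritic type 2-like and 14.5 in macrophage-like cells. H2-Oa, its alpha chain, stood at 151 CPM in dendritic type 2-like, 131 in dendritic type 1-like and 116 in mature B cell-like cells, where neighbours could not be separated, and at 11.3 in macrophage-like cells. The macrophage-like cells thus held Cd74 and chains at dendritic levels with H2-Oa 10.3-fold (6.09 to 18.9) below mature B cell-like cells. The part of other cell types in these values, given the dendritic and B cell markers of this class, was not tested. H2-Oa shares 2895 bases with an antisense gene, BC051537.

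The ratio of inhibitor to editor, H2-Oa and H2-Ob UMIs over those of H2-DMa, H2-DMb1 and H2-DMb2, was 0.646 (0.617 to 0.677) in mature B cell-like cells under the E18.5 label. It was 0.235 (0.212 to 0.259) in dendritic type 2-like and 0.221 (0.204 to 0.240) in dendritic type 1-like cells, and 0.0255 (0.0174 to 0.0362) in macrophage-like cells. Under the P180 label B lineage cells had 0.554 (0.425 to 0.717), dendritic type 1-like cells 0.0518 (0.0422 to 0.0631) and monocyte-like cells 0.0291. The B lineage value labelled P180 joins groups that differed, since the split at resolution 2 gave 0.367 (0.264 to 0.505) in mature B cell-like and 1.86 (1.07 to 3.32) in precursor-like cells, the latter from 39 and 21 UMIs. Neither the mature B cell-like nor the dendritic type 1-like intervals of the libraries overlapped.

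**Figure D2:**
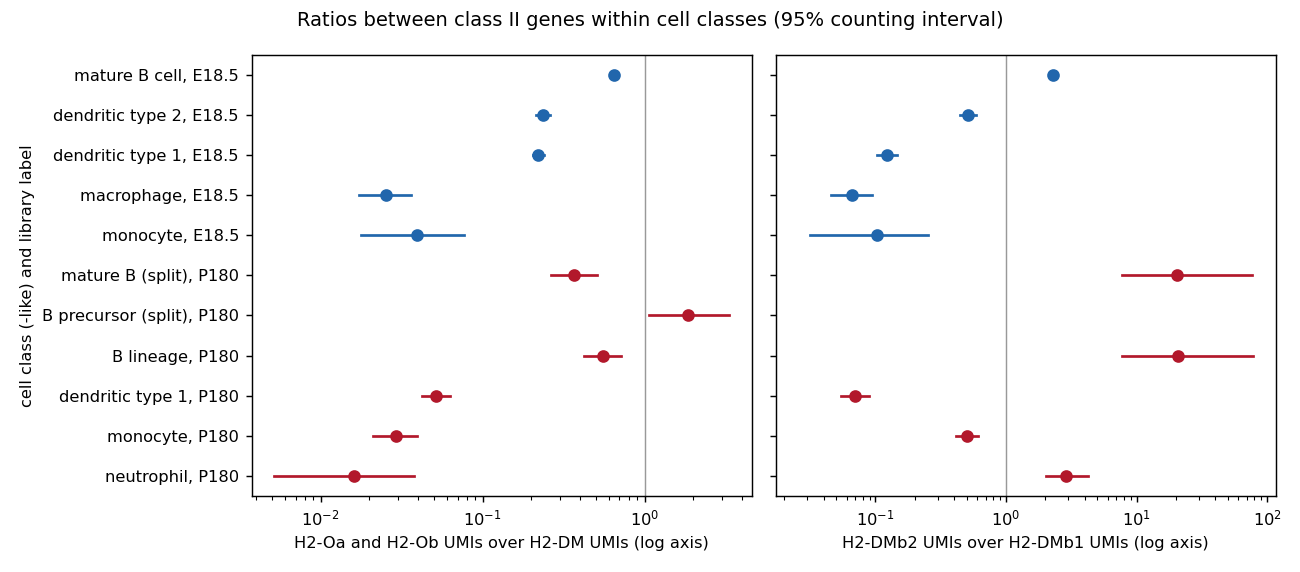
Ratio of H2-O to H2-DM UMIs (left) and of H2-DMb2 to H2-DMb1 UMIs (right) in cell classes of the libraries labelled E18.5 (blue) and P180 (red), on log axes with 95% counting intervals. On the left the B cell points lie rightmost among the classes drawn of each library, from 0.367 to 1.86. On the right the mature B cell and B lineage points lie above 1, as does that of neutrophil-like cells labelled P180 (2.91), and precursor-like cells have no point there, with 1 and 0 UMIs.

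Within the 3 mature B cell-like clusters under the E18.5 label Cd74 was nearly level, at 6837, 6282 and 6513 CPM. H2-Ob varied more over the same clusters, at 418 CPM in that led by Ebf1, Bank1 and Cd79a, 333 in that with Cd83 among its leading genes and 227 in that with Agbl1 and Iglc2. Ciita stood at 169, 141 and 108 CPM in these. A cluster that stayed unnamed, of 71 cells led by Igha, Igkc and Jchain, held Cd74 at 6386 CPM and Ciita at 114, but H2-Ob at 47.9.

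Plasma cell-like cells, of the class that secretes antibody, kept Cd74 but little else of the pathway. Their Cd74 level of 2530 CPM was set beside 115 CPM of H2-Aa, 289 of H2-Ab1, 220 of H2-Eb1, 27.2 of H2-DMa and 2.47 of Ciita. Cd74 UMIs were 4.05 times (3.78 to 4.34) the sum of the 3 chains, against 1.02 (1.01 to 1.03) in mature B cell-like and 0.684 in dendritic type 1-like cells. All 97 cells (100%) had a Cd74 UMI, while 6.19% had none of the 3 chains. Cd74 did not follow the chains from cell to cell, with 2436 CPM in the 6 cells with no chain UMI, 2527 in the 42 with 1 or 2 chains and 2537 in the 49 with all 3. Markers of mature B cells summed to 248 CPM in these cells and to 5840 CPM in mature B cell-like cells. With 2 times as many doublets left out the ratio was 1.09. Prdm1, which encodes the repressor that silences Ciita in plasma cells, stood at 133 CPM there and 6.14 in mature B cell-like cells, while Bcl6, of germinal centre B cells, stood at 4.32 and 136.

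In monocyte-like cells H2-DMa was higher for the level of Cd74 than in B or dendritic cells. Under the E18.5 label it stood at 177 CPM (152 to 205), and 0.446 times (0.371 to 0.535) the UMIs of Cd74, against 0.0388 in mature B cell-like and 0.0570 in dendritic type 1-like cells. Under the P180 label it stood at 151 CPM (142 to 160) and 0.552 times Cd74. Such ratios were also found in classes with little Cd74, at 0.813 (0.360 to 1.80) in NK cell-like cells labelled E18.5, and at 2.55 (1.86 to 3.54) in neutrophil-like, 1.14 (0.615 to 2.11) in mesenchymal-like and 0.321 in erythroid-like cells labelled P180. The level was not confined to the few cells with chains. In the cells with no chain UMI, 71 and 192 of them, H2-DMa was still 155 CPM (125 to 190) and 135 CPM (125 to 145), with Cd74 at 116 and 34.4. The 8 and 19 cells with all 3 chains held Cd74 at 2740 and 3684 CPM, and there the 17 dendritic markers summed to 571 and 902 CPM, against 218 and 156 in cells with none, so their part in the chain values was not tested. Clustering settings moved this class, and its H2-DMa over the highest chain was 1.93 and 1.01 but 0.201 to 2.15 and 0.129 to 3.16 under other settings.

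Cholangiocyte-like cells, of bile duct epithelium, had more Cd74, H2-Ab1, H2-Eb1 and H2-DMb1 than the endothelial-like and mesenchymal-like cells under the E18.5 label. Among 151 cells with a median of 11349 UMIs, Cd74 stood at 196 CPM, found in 17.2% (11.6 to 24.2) of thinned cells against the background of 4.67%. H2-Ab1 and H2-Eb1 stood at 80.5 and 82.1 CPM, H2-Aa at 39.2, and Ciita gave 1 UMI, H2-Oa 0 and H2-Ob 4. H2-DMb1 was 0.179 times (0.140 to 0.226) Cd74, against 0.0213 in mature B cell-like, 0.0349 in dendritic type 1-like and 0.00769 in T cell-like cells. In monocyte-like cells of both libraries (0.126 and 0.162) and mesenchymal-like cells labelled E18.5 (0.125, from 3 UMIs) the intervals overlapped that of cholangiocyte-like cells. They also did in NK cell-like cells labelled E18.5 (0.0625, from 1 UMI). Under the P180 label they did in mesenchymal-like (0.136, from 3 UMIs) and endothelial-like cells (2 UMIs of each gene). Neutrophil-like cells labelled P180 had a higher ratio, 0.768 (0.504 to 1.16). In endothelial-like cells labelled E18.5 the ratio was 0.0765 (0.0410 to 0.132). All but 2 of these cells carried a UMI of the 43 B, dendritic or macrophage markers, which include Cadm1, so the class could not be taken without them. Of the 8 dendritic type 1 markers, 5 were found, summing to 642 CPM, and Clec9a, Snx22 and Batf3 were at 0.

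In T cell-like, endothelial-like and neutrophil-like cells under the E18.5 label, cells without any of these 43 markers still held Cd74, at 32.5, 33.4 and 84.1 CPM against 49.9, 46.4 and 87.4 in all cells. The ratio of H2-DMa to Cd74 differed among these low classes. It was 0.385 (0.272 to 0.537) in T cell-like, 0.240 (0.169 to 0.336) in endothelial-like and 0.0504 in neutrophil-like cells. In T cell-like cells with no chain UMI, H2-DMa stood at 18.2 CPM and Cd74 at 34.9.

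Per cell, the 3 chains together formed narrow ranges in some classes and wide ones in others. Mature B cell-like cells under the E18.5 label had a median of 63.0 chain UMIs per 10000 UMIs, with 33.5 and 92.6 at the 10th and 90th percentile, and 95.1% had all 3 chains. Dendritic type 1-like cells had 200 (94.0 to 254) under that label and 204 (113 to 278) under the P180 label. Macrophage-like cells ran from 40.2 to 305 around 198. Dendritic type 2-like cells ran from 0 to 355 around 202, and 10.8% of them had no chain UMI. In those 21 cells Cd74 stood at 426 CPM and the dendritic markers at 695, against 16094 and 2181 in the 158 with all 3 chains.

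The B lineage cells labelled P180 were more uneven than those labelled E18.5. Their median was 0.867 chain UMIs per 10000, 41.3% had none and the 21 highest of 201 cells held 66.5% of all chain UMIs, against 22.0% in the 131 highest of 1308 cells labelled E18.5. The split at resolution 2 left this unevenness in place, since mature B cell-like cells had a median of 6.15 with 54.9 at the 90th percentile, and 24.1% had none. In monocyte-like cells of that label 76.8% had none, and 25 cells held 98.2% of the chain UMIs, and 12 of 114 held 85.1% under the E18.5 label.

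**Figure D3:**
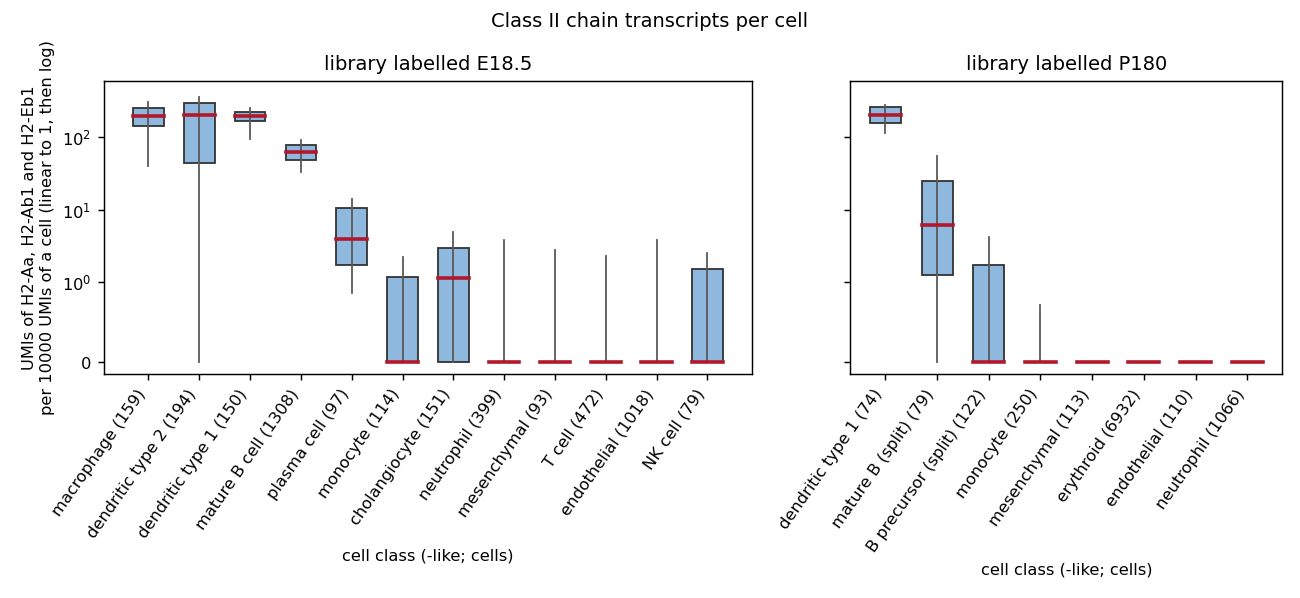
UMIs of H2-Aa, H2-Ab1 and H2-Eb1 per 10000 UMIs of each cell, by class and library, with the median (red), the 25th to 75th percentile (box) and the 10th to 90th (line), on an axis that is linear to 1 and then logarithmic. Mature B cell-like cells labelled E18.5 lie near 63.0 in a narrow range, while those labelled P180 reach from 0 to 54.9.

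For the comparison of the libraries within a class, a gene was measured from 50 UMIs in at least 1 library, and counted as higher or lower from a 2-fold ratio, with no test since each stage has 1 library. In B lineage cells all 10 members were lower in the library labelled P180, with a median log2 ratio of -3.50. Among the 8650 genes measured 18.2% were lower and 23.4% higher, with a median of 0.08. Cd74 stood at 6547 and 1270 CPM, a log2 ratio of -2.37 (-2.42 to -2.31), and H2-Aa at 2437 and 209 CPM (-3.55). H2-DMb1 had the greatest difference among the members, with 907 and 4 UMIs and a log2 ratio of -6.37 (-8.25 to -5.01). The other ratios were -2.90 for H2-DMa, -3.19 for H2-DMb2, -3.30 for H2-Oa, -3.46 for H2-Ab1, -3.66 for H2-Ob, -3.68 for Ciita and -4.02 for H2-Eb1. Markers of B cell precursors summed to 2087 CPM in these cells labelled P180 and to 94.6 in those labelled E18.5, and those of mature B cells to 1041 and 5840.

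With only the 79 mature B cell-like cells labelled P180, 9 of the 10 were lower, with a median of -2.05, where 16.4% of 8283 genes were lower and 19.1% higher. Cd74 was the member that lay between, at 4000 CPM and -0.71 (-0.77 to -0.66), and past 2-fold after scaling to equal effective totals. The chains were further apart than Cd74, at -1.99 for H2-Aa, -2.11 for H2-Ab1 and -2.47 for H2-Eb1. H2-DMb1 remained at -4.63 (-6.51 to -3.27) while H2-DMb2, at 319 and 115 CPM, was at -1.47 (-1.81 to -1.15). Cd74 over the 3 chains was 2.82 (2.62 to 3.03) in these cells against 1.02 in those labelled E18.5.

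Dendritic type 1-like cells were found in both libraries, and there most of the pathway was close. Of 10 members, 8 lay within 2-fold, 2 were lower in the library labelled P180 and 0 higher, where 4.14% of 5846 genes were lower and 5.59% higher. The chains and Cd74 lay between -0.32 and 0.27 on the log2 scale, H2-DMa at -0.55, H2-DMb1 at 0.30, H2-DMb2 at -0.51 and Ciita at -0.64. Both H2-O chains stood apart from these. H2-Oa stood at 131 and 26.2 CPM, a log2 ratio of -2.33 (-2.81 to -1.87), and H2-Ob at 165 and 34.9 CPM, a ratio of -2.24 (-2.66 to -1.85). Taken against all dendritic-like cells labelled E18.5, type 2 included, 3 members were lower (9.27% of 7530 genes lower, 4.71% higher), H2-DMb2 being the third at -1.34. The 6 shared B lineage markers summed to 10.3 CPM in the dendritic type 1-like cells labelled E18.5 and to 7112 CPM in mature B cell-like cells.

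**Figure D4:**
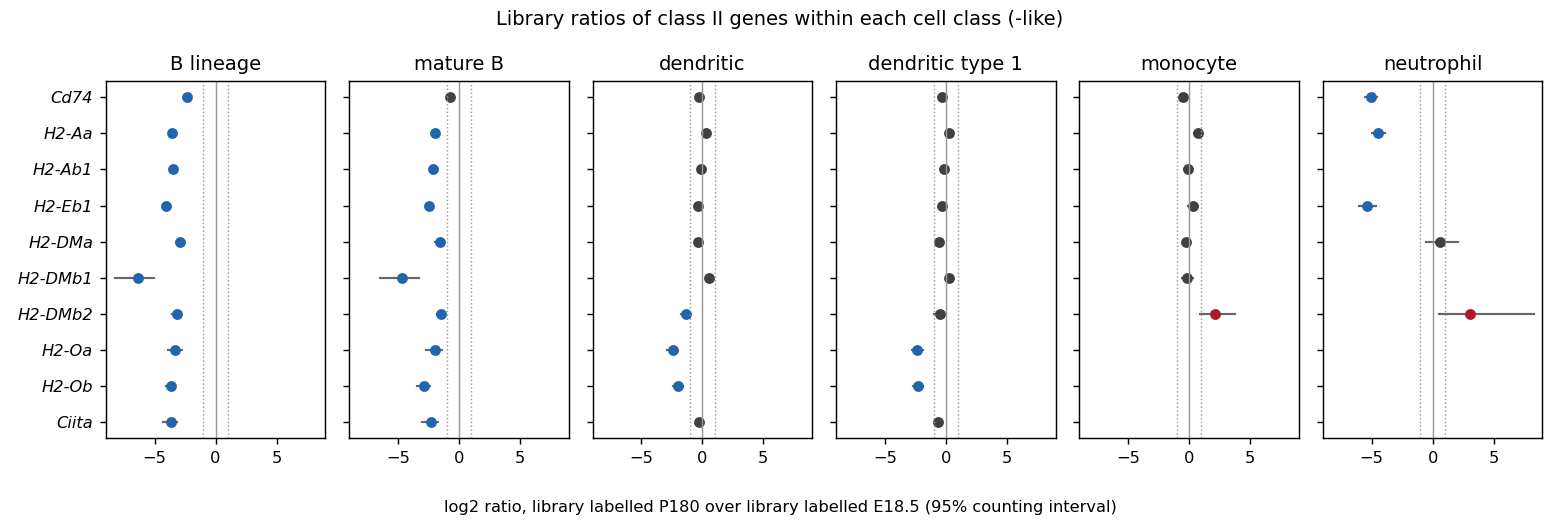
Log2 ratio of each measured class II gene between the libraries (labelled P180 over labelled E18.5) within 6 groups of cells, with 95% counting intervals and dotted lines at 2-fold (blue lower, red higher, grey between). All 10 points lie left of the dotted line in B lineage cells, and in dendritic type 1-like cells only H2-Oa and H2-Ob do.

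In monocyte-like cells 7 members were measured and 6 lay within 2-fold. The one that was higher in the library labelled P180 was H2-DMb2, with 5 and 156 UMIs and a log2 ratio of 2.14 (0.89 to 3.78), where 31.2% of 9047 genes were higher and 8.54% lower. H2-DMb2 over H2-DMb1 was 0.102 and 0.505 in these cells. The counts of this class rest on the clustering, since under other settings up to 6 members were lower or up to 8 higher.

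Neutrophil-like cells had 5 measured members, and Cd74 (-5.03), H2-Aa (-4.45) and H2-Eb1 (-5.35) were lower while H2-DMb2 was higher, where 35.8% of 9611 genes were higher and 18.1% lower. H2-DMb2 gave 1 UMI in 399 cells labelled E18.5 and 125 in 1066 cells labelled P180, at 5.96 CPM against 0.205 in erythroid-like cells of that library. It was found in 10.6% of cells unthinned (median 16474 UMIs) and in 0.759% thinned, against 0.0618% of thinned erythroid-like cells. In the 971 neutrophil-like cells with no chain UMI it stood at 5.85 CPM. The Cd74 levels of neutrophil-like cells were 87.4 and 2.67 CPM, beside 49.9 in T cell-like cells and 3.55 in erythroid-like cells of their libraries. Under the E18.5 label 1 cell gave 24.4% of these Cd74 UMIs. H2-DMa lay between at 0.63, and above 2-fold (1.30) after scaling, which moved the median of all genes from 0.46 to 1.13.

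In endothelial-like cells 4 of 4 measured members were lower in the library labelled P180 (10.1% of 8234 genes lower, 4.87% higher). All 4 reached the 50 UMIs of the rule only in the library labelled E18.5. The class held 3941182 UMIs there and 624111 under the P180 label, so the direction of this count follows largely from the rule. Cd74 gave 183 and 2 UMIs, a log2 ratio of -3.86 (-6.91 to -1.98). H2-Eb1 gave 144 and 0, which is 7.60-fold lower with the 0 set to 3 UMIs. The exact interval of this pair of counts reaches down to 6.10-fold. The background values, 49.9 CPM of Cd74 in T cell-like and 3.55 in erythroid-like cells, differed in the same direction. The part of background in these ratios was not tested. Under the E18.5 label endothelial-like cells had 46.4 CPM of Cd74 and 28.7 of H2-Aa, where T cell-like cells had 49.9 and 26.1. H2-Ab1 was higher than in T cell-like cells, at 32.2 against 17.7 CPM (1.83-fold, 1.29 to 2.62). So was H2-Eb1, at 36.5 (30.8 to 43.0) against 20.0 CPM (14.9 to 26.2). The median depth was 3151 UMIs in endothelial-like and 5277.5 in T cell-like cells, and the part of depth in these differences was not tested. H2-DMa, with 44 and 7 UMIs, was not measured by the rule above. Mesenchymal-like cells had 0 members measured (21.9% of 4093 genes lower, 35.6% higher).

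Other genes of the pathway were followed in lists. In B lineage cells, all 6 costimulation and checkpoint ligands were lower under the P180 label, with a median log2 ratio of -3.48. Of the 8650 genes measured there, 18.2% were lower and 23.4% higher. The B lineage cells labelled P180 formed a precursor-like cluster and those labelled E18.5 were mature B cell-like. They ran from Cd40 (-2.02), the receptor for T cell help, to Pdcd1lg2 (-5.97), and Cd86, a ligand of CD28, stood at 391 and 31.9 CPM. In mature B cell-like cells alone 5 of the 6 were lower, where 16.4% of 8283 genes were lower and 19.1% higher. In the whole B lineage March1, the ubiquitin ligase that removes class II from the surface, stood at 608 and 9.66 CPM. Cd83, which opposes it, stood at 1368 and 63.4 CPM. The related ligase March8 stood at 0.461 and 29.0 CPM. H2-Eb2, a class II beta chain gene next to H2-Eb1, stood at 77.7 and 1.68 CPM.

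Of the partners of Ciita, 7 were measured in B lineage cells and 0 were lower under the P180 label. There 2 were higher, Nfyb (2.12) and Rfxap (1.42), and 5 lay between, among them Rfx5 at -0.81. With 18.2% of all genes lower and 23.4% higher, these counts lie near the background. Of the regulators of Ciita, 4 of 4 measured lay between, including Irf8 (0.11), Irf4 (0.02), Spi1 (0.85) and Bcl6 (-0.88). Among 8 genes of antigen processing 1 was lower, Ctss (-2.09), the protease that degrades the invariant chain. Mif, a ligand of surface CD74, stood at 80.9 and 831 CPM, and its coreceptors Cd44 and Cxcr4 had log2 ratios of -0.91 and -2.14. Of 6 other genes of the locus measured, 3 were lower, H2-Eb2, Tap1 (-1.50) and Tap2 (-1.43), and Psmb8 (-0.13), Psmb9 (-0.50) and Brd2 (-0.81) lay between.

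In dendritic type 1-like cells the same lists lay mostly within 2-fold. All 5 measured partners of Ciita, 6 interferon gamma pathway genes, 7 processing genes and 5 other locus genes lay between. With 4.14% of 5846 genes lower and 5.59% higher in this class, these counts lie near the background. Cd274, a checkpoint ligand, was higher under the P180 label (1.09), and Cd44 (-1.07) and Cxcr4 (-1.42) were lower. March1 stood at 428 and 290 CPM and Cd83 at 529 and 725 CPM in these cells.

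Genes with the pattern most like a member were sought by Pearson correlation of log2(CPM + 10) over the 40 clusters with at least 30 cells, 21 of them labelled E18.5 and 19 labelled P180, among 12431 other genes. Clusters of a library share its depth and free RNA, so the values are a description. Most like Cd74 were Cd83 (0.951), Pkib (0.933), Cd180 (0.909), Ero1lb (0.901) and Gm20513 (0.899). For H2-Ob they were Kynu (0.931), Btla (0.931), Kmo (0.902), Gm20429 (0.898) and H2-Eb2 (0.897). For Ciita they were Gm20513 (0.979), Pkib (0.952), Hepacam2 (0.914), Kmo (0.910) and Fgd2 (0.902). Gm20513 is an antisense gene that overlaps H2-Eb1 by 2204 bases, so reads of the pair may not be separable. Among members, the 3 chains correlated at 0.991 to 0.994, and H2-DMb2 was nearer to H2-Ob (0.946) and H2-Oa (0.943) than to H2-DMb1 (0.772).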

How the data were processed

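Both libraries were made with 10x Chromium 3′ v3 chemistry and sequenced with a NovaSeq6000, per the labels. The authors deposited a raw UMI count for each gene in each barcode, checked here to be whole, and the file headers name Cell Ranger 7.1.0. Without a role, fastp, Trimmomatic, Seurat, edgeR and mm10 stand in the submitters' processing notes. The sources used here do not say how barcodes were called, and the lowest total is 500 UMIs. The libraries hold 37709972 (E18.5) and 90128038 (P180) UMIs, which sets the Poisson precision.

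Barcodes were kept with at least 200 genes, 500 UMIs and under 25% mitochondrial UMIs (47.8% and 98.1%). Scrublet (scanpy 1.11.5) scored doublets, and the highest 0.8% per 1000 barcodes, 178 and 735, were left out, since its own threshold would have marked 79 and 0. Each library was clustered alone on 2000 variable genes without the members (30 components, 15 neighbours, Leiden resolution 1, leidenalg 0.10.2, seed 1). Clusters took the name of the marker set, of 23, with the most markers among their 100 genes of highest fold, at least 3 being needed. The naming rule was set after clusters had been seen. Software was scikit-learn 1.9.0, igraph 0.11.9, scipy 1.17.1, numpy 2.4.6, biopython 1.88, pandas 2.3.3 and matplotlib 3.10.9 under Python 3.11.15.

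UMIs were summed per class. Ratios of a pair of counts have exact conditional 95% intervals, and shares exact binomial ones. Genes named are all members, genes of fixed lists, and for Cd74, H2-Ob and Ciita the 5 most like genes. Some list genes, and one list in B lineage cells, are not reported here. Members and lists were chosen with earlier results of these data known. The reference annotation (GENCODE M21) is of the build named in the notes. Counts were simulated for the B lineage, dendritic, monocyte and endothelial classes, on 6224, 4851, 3216 and 2632 genes. All of the 200 genes changed 4-fold were called (100%), and at most 0.0215% of unchanged genes. A 4-fold change lies well past the 2-fold rule, so these shares follow largely from the settings and cannot judge calls near 2-fold. More genes were measured in these classes (8650, 7530, 9047 and 8234), so the simulation does not cover all of them. Variation between libraries of a stage was not tested. Alternatives covered filters, doublets, clustering, scaling, thinning and the UMI minimum.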

Additional observations from a re-analysis of the deposited data

Results flagged for a closer look

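H2-DMb2 was singled out because its library ratio pointed in opposite directions in different classes, a difference that was not tested, since each stage has 1 library. On the log2 scale, labelled P180 over labelled E18.5, it was 2.14 in monocyte-like cells and 3.02 in neutrophil-like cells. It was -3.19 in B lineage cells and -1.34 in all dendritic-like cells, or -0.51 when only type 1-like cells were taken from both libraries. The higher values rest on 5 and 1 UMIs in the library labelled E18.5. Over the alternatives the monocyte-like value ran from 0.84 to 3.40, and the level in neutrophil-like cells labelled P180 from 4.61 to 6.19 CPM.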

How the results depend on the processing

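Of 98 alternative values of the main results, 85 stayed within 1.5 times a count or the counting interval of a value, and 13 moved, and of 494 for single genes 371 stayed and 123 moved. No library ratio of a member past 2-fold at the base settings changed sign in the B lineage, dendritic, monocyte and endothelial classes. Library ratios of neutrophil-like cells were not taken under the alternatives. Between 9 and 10 members were lower in B lineage cells, 2 to 3 in dendritic-like cells, and H2-O over H2-DM in mature B cell-like cells ran from 0.618 to 0.647. In monocyte-like cells, against 0 lower, there were 6 with members kept among the clustering genes, 6 with a mitochondrial limit of 10%, 5 with no limit, 2 with 2 times as many doublets left out and 1 with no UMI minimum. Against 1 higher, there were 0 with members kept, with the 10% limit, with no doublets left out and from 200 UMIs, and 8 at resolution 0.5. Of 60 alternative values for monocyte-like ratios within 2-fold at the base settings, 16 changed sign and 9 of these lay past 2-fold, with log2 ratios from -4.46 to 2.64 for Cd74, -4.73 to 4.26 for H2-Aa, -6.02 to 4.25 for H2-Ab1 and -5.59 to 4.16 for H2-Eb1. In endothelial-like cells 0 were lower from 200 UMIs, where fewer genes are tested, and 3 higher with no minimum. Those 3, H2-DMb2, H2-Oa and Ciita, had 4, 2 and 7 UMIs labelled E18.5 and 0 labelled P180. A 0 was set to 3 UMIs in these ratios, so the higher calls come from that substitute and not from counted UMIs. The Cd74 share in B lineage cells labelled P180 was 60.7% without thinning against 47.0%. Beside these the cause was not tested. Dendritic-like cells labelled P180 formed no cluster under either mitochondrial alternative, with no doublets left out or at resolution 0.5, which left 0 cells to compare. Cd74 ran from 32.5 to 186 CPM in T cell-like and from 397 to 2841 CPM in monocyte-like cells labelled E18.5. No paired analysis was possible because each stage has 1 library, and for the same reason no library could be left out. Depth limits the low classes, where several members rest on under 10 UMIs.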
